A study of Mus musculus with 6 samples.

Results

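This account covers 33 genes of histone lysine methylation, 15 demethylases and 18 methyltransferases, taken by symbol from the 23951 genes of a read count table. Genes with Kdm, Phf or Jmjd symbols counted as demethylases and the others as methyltransferases. All 33 were among the 12204 genes with enough reads to be tested. Total RNA was sequenced from haematopoietic stem cells of C57BL/6 mouse fetal liver, in 3 libraries of Uqcrfs1 knockout cells (KO) and 3 libraries of wild type cells (WT). Uqcrfs1 is the gene of RISP, the Rieske iron-sulfur protein, which carries electrons within complex III of the respiratory chain. The sources used here do not state how or in which cells it was deleted, the embryonic age, or whether libraries came from separate embryos. The p-values therefore reflect the spread between libraries, which may be technical in part. In KO it is not technical alone, since the sex-linked counts given below set KO replicates 1 and 2 apart.

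Lysines of histone tails carry methyl groups that mark active or silent chromatin. Methyltransferases with a SET domain, and DOT1L, which has none, add them from S-adenosylmethionine. Demethylases of the JmjC family remove them with iron, oxygen and 2-oxoglutarate, and release succinate, whereas KDM1A and KDM1B use FAD. JmjC enzymes therefore depend on metabolites that a working respiratory chain supplies and clears, and in blood stem cells several of these enzymes, such as EZH2, DOT1L and KDM1A, are known to be needed for normal blood formation. Only transcripts were measured here, not enzyme activity or histone marks.

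Uqcrfs1 had 60, 51 and 39 counts in KO and 771, 1320 and 791 counts in WT. It fell to 3.60 ± 0.650 CPM (library-scaled read counts) in KO, against 87.1 ± 32.1 CPM in WT (SD, n = 3 each), and every library matched its label by this gene. Library totals ran from 12020128 to 14590844 counts in KO and from 10191354 to 13189329 counts in WT. All 10 stem cell markers checked had counts, and their summed level was 1649 to 1888 CPM in KO and 2029 to 2451 CPM in WT, with 4 of them lower in KO and Fgd5 higher. For 6 other cell types of the fetal liver, summed markers were lower in every KO library than in any WT library. They stood at 35.9 to 67.4 CPM in KO against 205 to 440 CPM in WT for 8 erythroid genes (3 lower, Hba-a1 and Hbb-b1 at 0 in all 6 libraries), and at 33.8 to 75.5 CPM in KO against 80.9 to 942 CPM in WT for 10 macrophage genes (1 lower). They stood at 51.1 to 89.6 CPM in KO against 101 to 873 CPM in WT for 6 endothelial genes (0 lower), at 66.0 to 112 CPM in KO against 128 to 201 CPM in WT for 8 hepatoblast genes (2 lower), and at 103 to 125 CPM in KO against 214 to 230 CPM in WT for 6 megakaryocyte genes (3 lower). The 7 granulocyte and mast cell genes summed to 196 to 209 CPM in KO and 263 to 327 CPM in WT (1 lower, and the mast cell and basophil gene Prss34 higher), and the 5 lymphoid genes to at most 5.12 CPM in any library. The high macrophage and endothelial values were those of WT replicate 3. In such bulk libraries, fewer cells of a type and less RNA per cell cannot be told apart. The ribosomal RNA gene Rn45s took 4.96% to 9.92% of counts in KO and 10.5% to 11.7% in WT. The part of these differences in the results below was not tested, except that counts are given without WT replicate 3.

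In KO, 11 of the 33 genes rose and 0 fell (edgeR's quasi-likelihood test, Benjamini-Hochberg adjusted over all 12204 genes, threshold 0.05). That is 33.3% of them, against 6.41% of all genes tested that rose and 4.99% that fell. The risers were the methyltransferase genes Setd8, Whsc1, Ehmt2, Dot1l, Nsd1, Setd1a, Whsc1l1 and Ezh2 and the demethylase genes Kdm3a, Kdm4a and Kdm6b. By class, 8 of 18 methyltransferases and 3 of 15 demethylases rose. The median log2 fold change was 0.38 over the 33 genes, 0.39 over the methyltransferases and 0.38 over the demethylases, against -0.02 over all genes tested. Values ran from -0.40 for Kdm1b to 0.90 for Dot1l. DESeq2 also called 0 of the 33 lower, and at an unadjusted p under 0.05 in edgeR 19 were higher and 1, Kdm5b, was lower. The share of all genes at that unadjusted threshold was not computed, so these last counts are descriptions only. Because the genes were chosen with earlier results of these data known, these shares describe the list and are not an independent test of it.

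The count depended on which KO libraries were included. Without KO replicate 2, 5 of the 33 genes rose (3.57% of all genes), and without KO replicate 3, 6 rose (3.88% of all genes). Without WT replicate 3, the library with high macrophage and endothelial markers, 9 rose (5.63% of all genes), and 7 with length offsets added (4.81%). Without KO replicate 1, WT replicate 1 or WT replicate 2, 11, 10 and 12 rose, against 5.23%, 4.73% and 5.68% of all genes. Other tools gave 14 with DESeq2 (6.83% of all genes), 12 with limma-voom (5.97%) and 13 with no filter on low counts (6.06%). On the authors' RPKM, limma called 2, Setd8 and Whsc1, with a pseudocount of 1 (2.56%) or 0.1 (2.48%), and 1, Setd8, with no filter (0.94%). Setd8, Whsc1, Ehmt2 and Dot1l rose whichever of the 6 libraries was left out. Across the list, the CPM of all 3 KO libraries lay above those of all 3 WT libraries for 20 genes and below them for 1, Kdm5a. The same held for 15.7% and 14.5% of all genes tested.

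**Figure D1:**
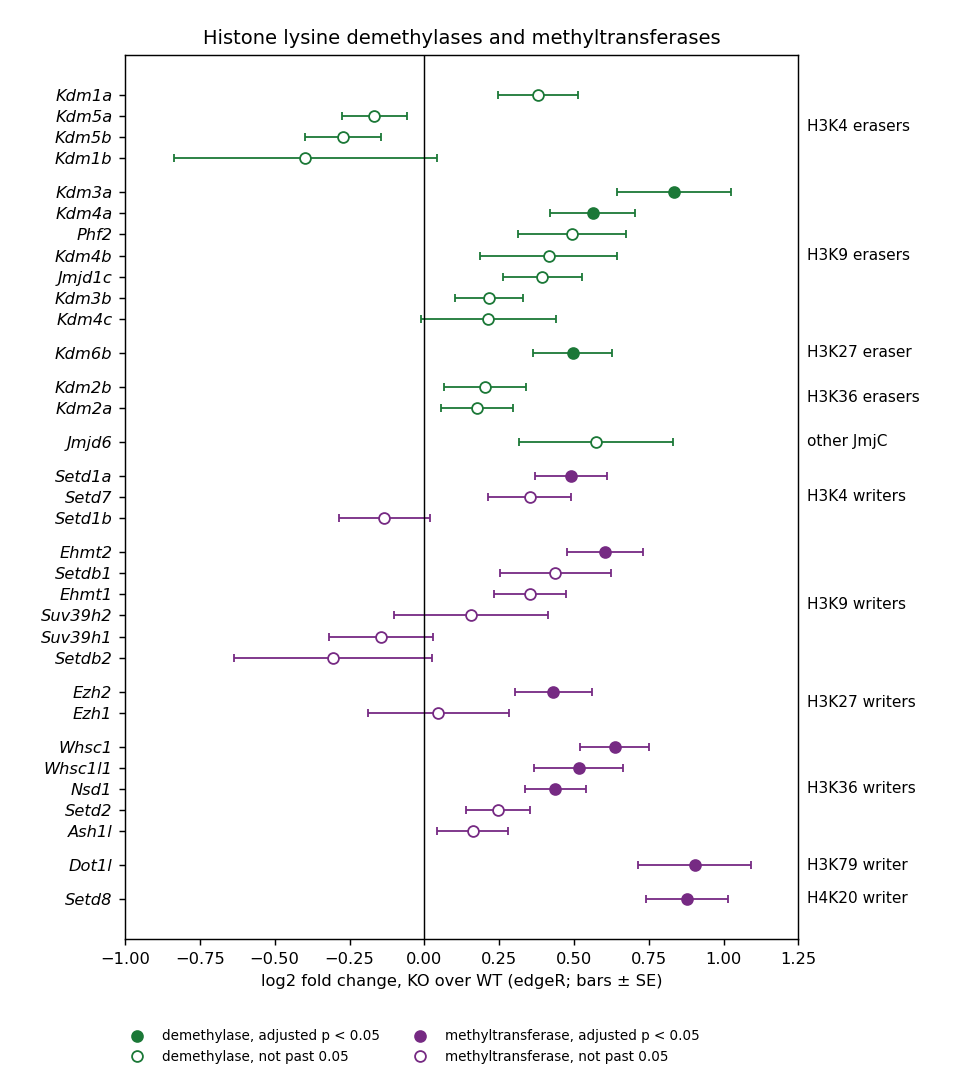
Log2 fold change of each of the 33 genes in KO over WT (horizontal axis, points with bars of 1 SE from edgeR, n = 3 libraries each), grouped by the mark the enzyme writes or erases. Filled points passed an adjusted p of 0.05. All 11 filled points lie right of 0, and the H3K4 erasers Kdm5a, Kdm5b and Kdm1b lie left of it.

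Promoter sequence is given for 3 of the risers that have a single start listed by RefSeq, to show what lies upstream of genes that rose together. Each run holds the 250 bases before the start, 5′ to 3′ in the direction of the gene, on build GRCm38.p6. Capitals mark the 5-letter core ACGTG, on either strand, which HIF factors bind.
Dot1l, chr10:80754953-80755202, plus strand: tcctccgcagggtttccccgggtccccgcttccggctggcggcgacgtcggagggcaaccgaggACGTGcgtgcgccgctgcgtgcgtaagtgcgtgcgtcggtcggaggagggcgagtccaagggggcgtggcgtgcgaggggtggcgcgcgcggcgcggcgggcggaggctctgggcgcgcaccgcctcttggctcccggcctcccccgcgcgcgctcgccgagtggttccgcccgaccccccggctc
Ezh2, chr6:47595031-47595280, minus strand: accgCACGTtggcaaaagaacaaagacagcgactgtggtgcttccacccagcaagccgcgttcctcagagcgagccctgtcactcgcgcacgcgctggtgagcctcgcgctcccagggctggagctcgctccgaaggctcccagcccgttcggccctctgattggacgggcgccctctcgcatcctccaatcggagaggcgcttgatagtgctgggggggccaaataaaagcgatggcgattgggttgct
Kdm4a, chr4:118180044-118180293, minus strand: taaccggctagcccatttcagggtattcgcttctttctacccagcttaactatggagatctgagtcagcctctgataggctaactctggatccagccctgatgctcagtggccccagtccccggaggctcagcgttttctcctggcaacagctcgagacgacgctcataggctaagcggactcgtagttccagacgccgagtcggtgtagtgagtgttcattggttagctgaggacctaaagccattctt
Of the 11 risers, 7 had a promoter entry. Setd1a, which has a single start but is not printed, had 0 matches to any motif searched. The core ACGTG was in the windows of Dot1l, Ezh2 and both starts of Ehmt2, and in 16.6% of the 32851 promoters listed. TGATGNAA, the motif used for ATF4, was in none of their windows and in 3.45% of all. TTTNNCGC, used for E2F, was in none of them and in 4.28% of all, and GCATGCGC, used for NRF1, was in none and in 2.26% of all. With so few windows, the absence of motifs this rare carries no information. These matches describe letters in these windows and do not show that a factor bound there.

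Setd8 encodes the enzyme that places the first methyl group on lysine 20 of histone H4, a mark of mitosis and of chromosome condensation. It had 199, 178 and 174 CPM in KO replicates 1 to 3, against 87.4, 98.03 and 114 CPM in WT replicates 1 to 3. The lowest KO library stood well above the highest WT library. The log2 fold change of Setd8 was 0.88 (SE 0.14; edgeR, adjusted p = 0.000237), and its highest adjusted p without 1 library was 0.00289. On the authors' RPKM, which scale reads by gene length, Setd8 averaged 70.2 ± 4.26 in KO and 37.3 ± 4.61 in WT (SD, n = 3 each). Of the 33 genes, Setd8 alone passed under every alternative run.

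Dot1l encodes the methyltransferase of lysine 79 of histone H3, a mark of transcribed genes. It had 80.9, 78.6 and 93.2 CPM in KO and 41.8, 55.7 and 37.6 CPM in WT. The groups did not overlap, and the log2 fold change was 0.90 (SE 0.19, edgeR, adjusted p = 0.00342, and 0.0528 with length and GC offsets). Dot1l was a rare transcript per length among the 33, at 9.75 ± 1.04 RPKM in KO and 5.42 ± 1.05 RPKM in WT (SD, n = 3 each). Of 4 partner genes of DOT1L (Mllt1, Mllt3, Mllt6 and Mllt10), 0 passed the threshold in either direction with edgeR or DESeq2. Beside the 6.41% of all genes that rose and 4.99% that fell in edgeR, 0 of 4 says little. At an unadjusted p under 0.05 in edgeR, 2 were higher and 1 lower, a share not computed over all genes.

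All 3 genes of the NSD family, whose enzymes place up to 2 methyl groups on lysine 36 of histone H3, rose in KO. Of all genes tested 6.41% rose, and 16.6% of those in the decile with the longest transcripts, where all 3 lie. A family this small says little beside those shares. Whsc1 (also named Nsd2) had 390, 392 and 463 CPM in KO and 257, 301 and 242 CPM in WT. Every KO library exceeded every WT library, with a log2 fold change of 0.64 and an SE of 0.12 (edgeR, adjusted p = 0.000989). Nsd1 had 589, 661 and 624 CPM in KO and 420, 451 and 512 CPM in WT, again without overlap. Its log2 fold change was 0.44 (SE 0.10, edgeR, adjusted p = 0.00843, and 0.0616 without KO replicate 2). Whsc1l1 (also named Nsd3) had 134, 167 and 158 CPM in KO and 119, 115 and 87.1 CPM in WT. It rose by a log2 value of 0.52 (SE 0.15, edgeR, adjusted p = 0.0268), and lost the call without KO replicate 2 (adjusted p = 0.147), KO replicate 3 or WT replicate 3. Whsc1l1 also lost the call with length offsets (edgeR, adjusted p = 0.0863). The other H3K36 writers did not pass. Setd2, which adds the third methyl group, averaged 422 ± 17.2 CPM in KO and 356 ± 36 CPM in WT, with a log2 fold change of 0.25 (edgeR, adjusted p = 0.149). Ash1l averaged 258 ± 6.08 CPM in KO and 231 ± 33 CPM in WT (SD, n = 3 each). Of the H3K36 erasers, Kdm2a and Kdm2b had log2 fold changes of 0.17 and 0.20 and did not pass (edgeR, adjusted p = 0.403 and 0.397).

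**Figure D2:**
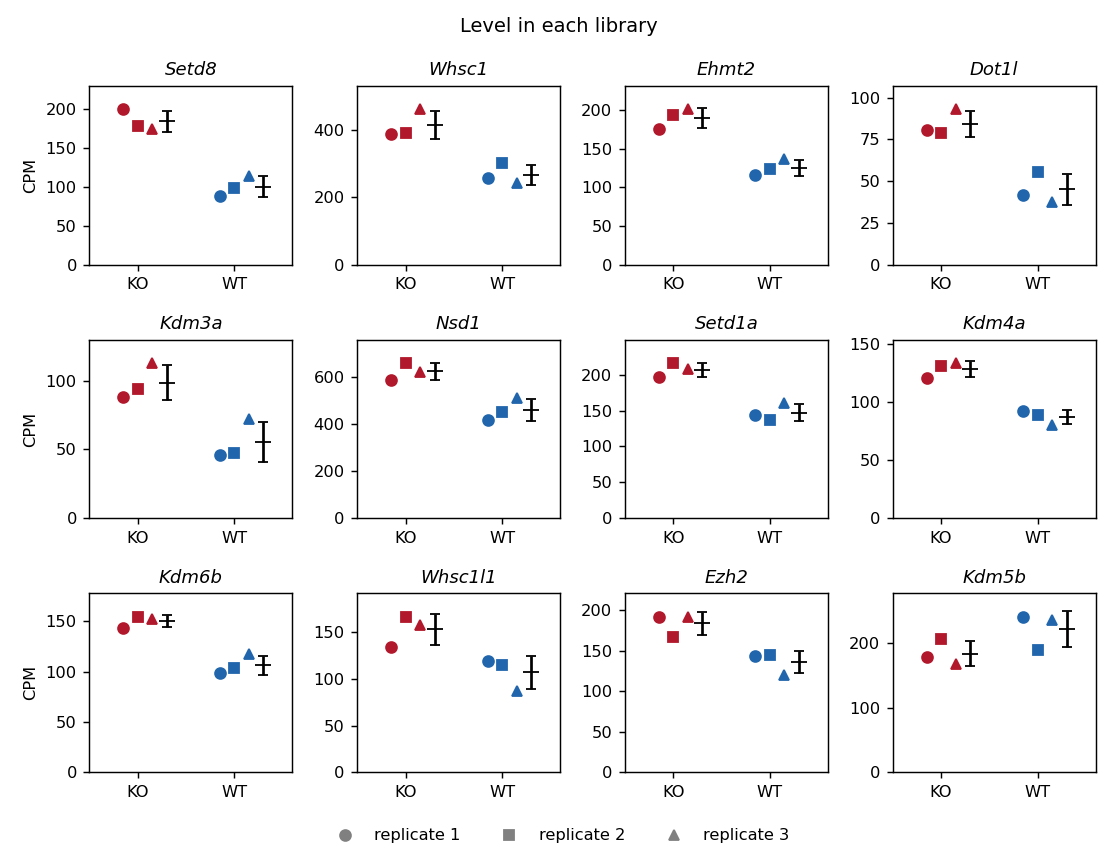
Level in CPM (vertical axis, from 0) of the 11 genes that rose and of Kdm5b, with a point per library and the mean ± SD beside it (n = 3 each), KO left of WT. For the 11 genes each KO point lies above each WT point, and for Kdm5b the groups overlap.

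Among the writers of H3K9 methylation, a mark of silent chromatin, 1 of 6 rose, which as a single gene says little beside the 6.41% of all genes that rose. Ehmt2, which encodes G9a, had 176, 194 and 201 CPM in KO and 115, 124 and 136 CPM in WT. The groups did not overlap, and the log2 fold change was 0.60 (SE 0.13, edgeR, adjusted p = 0.0034, and 0.0564 with length and GC offsets). Its partner Ehmt1, which encodes GLP, averaged 205 ± 9.99 CPM in KO and 160 ± 14.9 CPM in WT (SD, n = 3 each), with KO above WT in all libraries but an adjusted p of 0.0629 (edgeR). Setdb1, the H3K9 enzyme that silences retroelements, had 68.1, 113 and 96.4 CPM in KO and 77.5, 61.5 and 66.2 CPM in WT, so KO replicate 1 fell among the WT libraries. The heterochromatin enzymes Suv39h1 and Suv39h2 and the related Setdb2 had overlapping groups, with log2 fold changes of -0.15, 0.16 and -0.31. Of 7 cofactors and readers of this mark, Wiz, a zinc finger partner of G9a and GLP, rose by 0.62 (edgeR, adjusted p = 0.0206), a call lost without KO replicate 1, KO replicate 3 or WT replicate 1. Cbx3, a heterochromatin protein 1 gene, fell by 0.35 (edgeR, adjusted p = 0.0417), a call lost without any 1 library other than KO replicate 1. Neither Wiz nor Cbx3 passed with length and GC offsets (edgeR, adjusted p = 0.151 and 0.53). Atf7ip, of the same list, did not pass without offsets (edgeR, adjusted p = 0.0996). It fell by 0.43 with length offsets and by 0.45 with length and GC offsets (edgeR, adjusted p = 0.0333 and 0.0201). Beside the 6.41% of all genes that rose and 4.99% that fell without offsets, single calls in a list of 7 say little.

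All 7 erasers of H3K9 methylation had positive log2 fold changes and 2 of them rose. Over all 12204 genes tested, 5864 had positive log2 fold changes and 6.41% rose. In a list this short, these counts are descriptions only. Kdm3a had 88.3, 94.1 and 113 CPM in KO and 45.8, 47.7 and 71.9 CPM in WT. WT replicate 3 was the highest WT library and still lay below every KO library. The log2 fold change was 0.83 (SE 0.19, edgeR, adjusted p = 0.00651, and 0.0539 without KO replicate 3). KDM3A is known as a target of the hypoxia factor HIF-1. The core ACGTG was in none of the 3 Kdm3a windows listed. For HIF only this core was searched, and only in these short windows before the starts. Its absence there carries no information on HIF, and a role of HIF in the rise of Kdm3a was not tested. Kdm4a, whose enzyme acts on H3K9 and H3K36, had 121, 131 and 134 CPM in KO and 91.9, 88.9 and 80.0 CPM in WT. It rose by a log2 value of 0.56 (SE 0.14, edgeR, adjusted p = 0.0124), and lost the call without KO replicate 2 (adjusted p = 0.0622) or KO replicate 3. Jmjd1c, of the KDM3 family, averaged 229 ± 13.1 CPM in KO and 174 ± 29.5 CPM in WT (SD, n = 3 each), just outside the threshold (edgeR, adjusted p = 0.0547). The other 4, Phf2, Kdm4b, Kdm3b and Kdm4c, had log2 fold changes of 0.49, 0.42, 0.22 and 0.21 and did not pass.

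For H3K27 methylation, the Polycomb mark, the writer Ezh2 and the eraser Kdm6b rose without offsets, and neither passed with length offsets (edgeR, adjusted p = 0.052 and 0.0504). With length and GC offsets Ezh2 passed and Kdm6b did not (edgeR, adjusted p = 0.0129 and 0.54). The X-linked eraser Kdm6a, outside the 33, had a log2 fold change of -0.25 and did not pass (edgeR, adjusted p = 0.492). Ezh2 had 192, 167 and 192 CPM in KO and 144, 145 and 120 CPM in WT, and was the most abundant of the 33 per length, at 80.1 ± 7.2 RPKM in KO and 58.7 ± 4.06 RPKM in WT (SD, n = 3 each). Its log2 fold change was 0.43 (SE 0.13, edgeR, adjusted p = 0.0325), and it lost the call without WT replicate 3 or any 1 KO library (highest adjusted p 0.124). Ezh1, its less active relative, had 28.1, 37.1 and 37.8 CPM in KO and 35.4, 30.5 and 33.8 CPM in WT, with no separation. Kdm6b, which encodes JMJD3, had 143, 155 and 152 CPM in KO and 98.6, 103 and 117 CPM in WT. It rose by a log2 value of 0.50 (SE 0.13, edgeR, adjusted p = 0.0184), a call lost without KO replicate 2, KO replicate 3, WT replicate 1 or WT replicate 2 (highest adjusted p 0.0921). Of 9 partner genes of the Polycomb repressive complex of EZH2, 1 was higher and 2 lower at an unadjusted p under 0.05 in edgeR. That share was not computed over all genes. A list this short says little beside the 6.41% of all genes that rose and 4.99% that fell in edgeR. EdgeR and DESeq2 each called 0 of the 9 higher and 1 lower. That gene, Rbbp4, a histone chaperone shared with other complexes, had 205, 182 and 174 CPM in KO and 249, 261 and 241 CPM in WT (log2 fold change -0.42, edgeR, adjusted p = 0.0194), and lost the call without KO replicate 2, KO replicate 3 or WT replicate 2, and with length and GC offsets (adjusted p = 0.0702).

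For H3K4 methylation, a mark of promoters and enhancers, writers and erasers were mixed. Setd1a had 197, 216 and 207 CPM in KO and 143, 138 and 160 CPM in WT, without overlap. It rose by a log2 value of 0.49 (SE 0.12, edgeR, adjusted p = 0.0103, and 0.0689 without KO replicate 2). In GENCODE M21, exons of other genes, 1 of them on the opposite strand, cover 52.3% of the exonic bases of Setd1a, so its reads carry that uncertainty. The covered share was 24.6% for Kdm3b, 14.6% for Suv39h1 and 4.11% for Kdm6b. Setd7 averaged 162 ± 17.1 CPM in KO and 127 ± 17.9 CPM in WT (SD, n = 3 each) and did not pass. Setd1b had 117, 103 and 154 CPM in KO and 124, 134 and 151 CPM in WT, with overlapping groups. Of the erasers, Kdm1a, which encodes LSD1, had 150, 132 and 148 CPM in KO and 107, 117 and 106 CPM in WT. These groups did not overlap, but the adjusted p was 0.069 (edgeR). Kdm5b had 178, 206 and 168 CPM in KO and 241, 190 and 237 CPM in WT, and Kdm5a averaged 223 ± 13.5 CPM in KO and 251 ± 6.62 CPM in WT (SD, n = 3 each). Neither passed, with log2 fold changes of -0.27 and -0.17 (edgeR, adjusted p = 0.183 and 0.369). Kdm1b was the rarest of the 33 per length, at 2.43 ± 1.13 RPKM in KO and 3.48 ± 0.941 RPKM in WT, and had 13.8, 4.93 and 13.4 CPM in KO and 10.2, 15.8 and 16.2 CPM in WT. Jmjd6, a JmjC enzyme with reported arginine demethylase and lysyl hydroxylase activity, averaged 36.6 ± 8.68 CPM in KO and 24.6 ± 3.60 CPM in WT and did not pass (edgeR, adjusted p = 0.168).

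Long transcripts tended to be higher in KO libraries, and most of the 33 genes are long. Per doubling of transcript length, the log2 level relative to each gene's mean changed by 0.019, 0.042 and 0.025 in KO replicates 1 to 3. In WT replicates 1 to 3 it changed by 0.0076, -0.083 and -0.0095. Each KO value lay above each WT value, and the size of the contrast rested in part on WT replicate 2. Length offsets were not fitted without that library. The median transcript was 5494 nt over the 33 and 3164.5 nt over all genes tested, and 12 of the 33 fell in the decile with the longest transcripts, from 6723 nt upwards. In that decile 16.6% of genes rose and the median log2 fold change was 0.09, against 1.4% and -0.21 in the decile with the shortest transcripts. Of those 12 genes 4 rose. The other 7 risers lay outside the longest decile, among them Setd8 at 2739 nt, in a decile where 4.63% of genes rose, and Kdm3a at 4853 nt, in a decile where 8.16% rose.

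**Figure D3:**
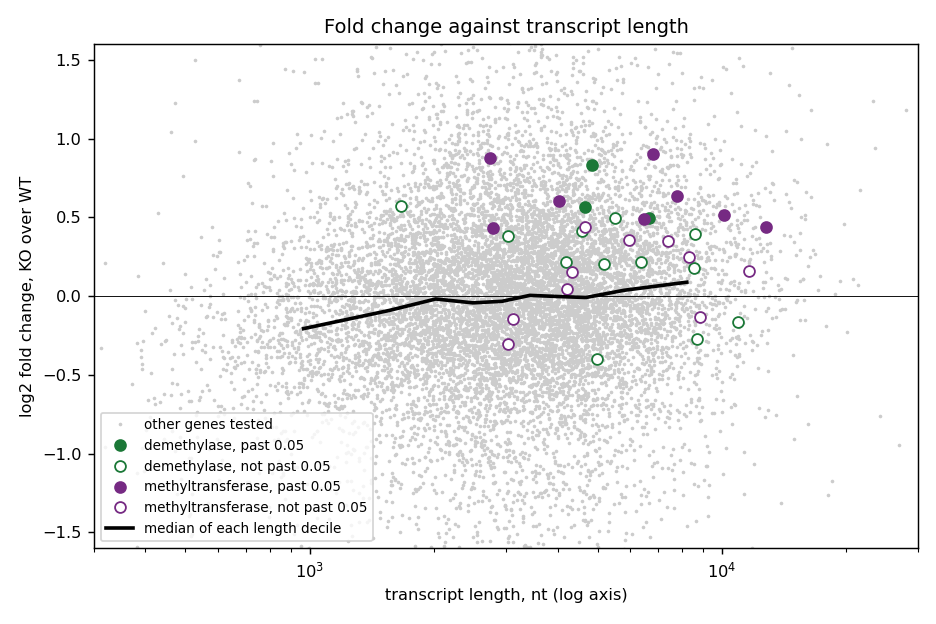
Log2 fold change in KO over WT (vertical axis) against transcript length in nt (horizontal log axis) for the genes tested, with the 33 genes in colour and the median of each length decile as a line. The line runs from -0.21 to 0.09. Filled points passed the threshold, and genes beyond the axis limits are not drawn.

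With offsets for transcript length fitted to each library, 8 of the 33 genes rose (24.2%) and 0 fell, against 5.85% of all genes that rose and 4.78% that fell. With these offsets the median log2 fold change was 0.001 in the longest decile and -0.071 in the shortest. The offsets did not remove the trend in calls, since 12.6% of genes in the longest decile still rose, against 2.06% in the shortest. Of the 12 members of the longest decile, Whsc1, Dot1l and Nsd1 rose in that fit. Kdm6b, Whsc1l1 and Ezh2 lost the call (edgeR, adjusted p = 0.0504, 0.0863 and 0.052). With offsets for length and GC content together, 6 rose and 2 fell, against 5.29% and 4.21% of all genes. Ehmt2, Dot1l, Setd1a, Kdm6b and Whsc1l1 did not pass in that fit, and Ezh2 did. The first 4 of these have a GC content of 57.0% to 60.8%, within the highest or second-highest decile. In the highest GC decile 7.5% of genes rose and 1.73% fell, and in the lowest 4.2% rose and 7.17% fell. The genes that fell with length and GC offsets were Kdm5b, by 0.39, and Setd1b, by 0.51 on the log2 scale (edgeR, adjusted p = 0.036 and 0.022). Setd8, Whsc1, Kdm3a, Kdm4a and Nsd1 rose in all 3 fits.

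**Figure D4:**
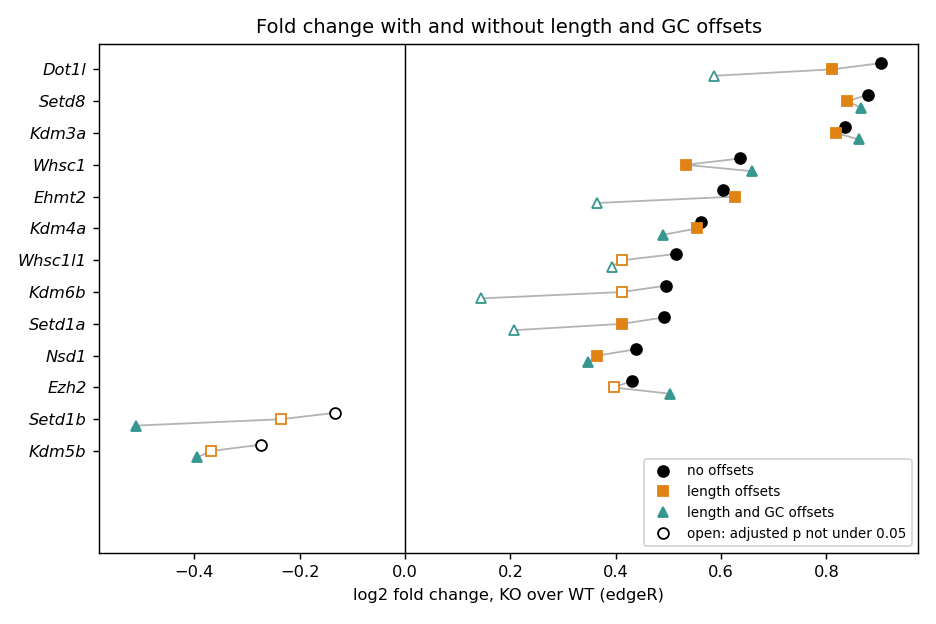
Log2 fold change in KO over WT (horizontal axis) of the 11 genes that rose and of Setd1b and Kdm5b, without offsets, with length offsets and with length and GC offsets. Filled symbols passed an adjusted p of 0.05. Dot1l, Ehmt2 and Setd1a are open only with the GC term, Kdm6b is open with length offsets already, and Setd8, Kdm3a and Whsc1 stay filled in all 3 fits.

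Ratios between related genes within a library do not depend on how that library is scaled. For 13 such pairs, the log2 ratio of CPM was compared between groups with a two-sided exact permutation test, whose smallest possible p with 3 libraries against 3 is 0.1. No pair passed. In 6 pairs the groups did not overlap, each with that smallest p (0.217 adjusted over the 13 pairs). How often other pairs of genes separate was not computed, so the count of 6 is a description. The naming order sets the sign, and in 4 of the 6 the second gene (Kdm3a, Kdm4a, Ehmt2 or Setd1a) is one already called, so these ratios restate those calls in part. The log2 ratio of Setd1b to Setd1a was -0.75, -1.07 and -0.43 in KO and -0.20, -0.03 and -0.08 in WT, a difference of -0.64. That of Kdm3b to Kdm3a was 1.41, 1.33 and 0.96 in KO and 2.02, 2.04 and 1.56 in WT, also a difference of -0.64. The ratio of Kdm4c to Kdm4a differed by -0.35, of Ehmt1 to Ehmt2 by -0.25, of Setdb2 to Setdb1 by -0.71 and of Kdm1b to Kdm1a by -0.86. The ratio of Ezh1 to Ezh2 was -2.75, -2.16 and -2.33 in KO and -2.01, -2.23 and -1.82 in WT, so KO replicate 2 and WT replicate 2 crossed (exact permutation p = 0.2). For Whsc1 and Whsc1l1 against Nsd1, whose genes all rose, the ratios differed by 0.20 and 0.08 with overlapping groups.

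**Figure D5:**
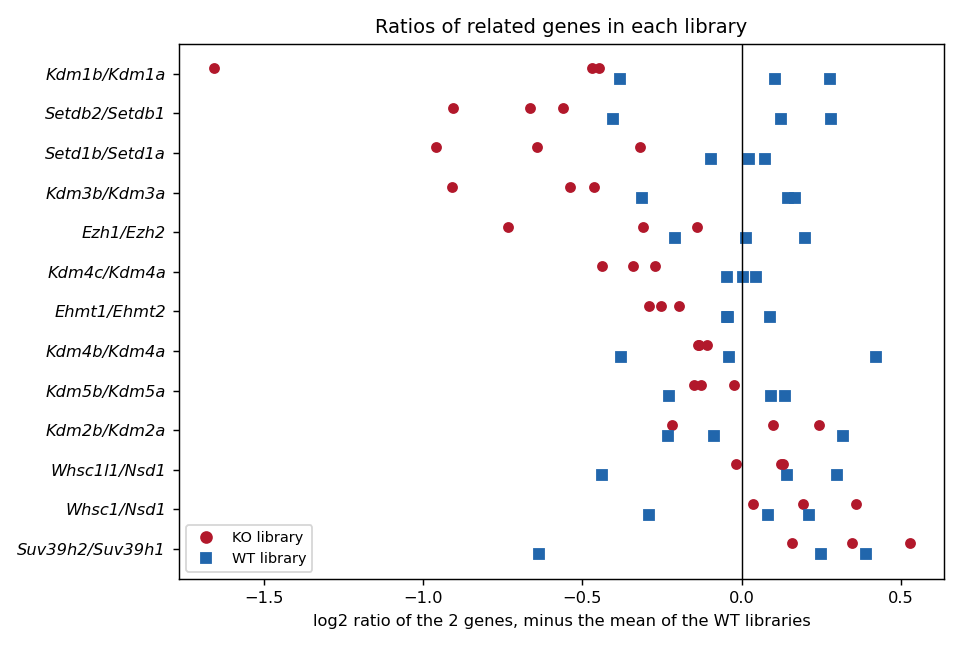
Log2 ratio of CPM of 13 pairs of related genes in each library (horizontal axis), minus the mean of the 3 WT libraries for that pair, with KO libraries as circles and WT libraries as squares. Circles lie left of all squares in 6 pairs, among them Kdm1b/Kdm1a and Ehmt1/Ehmt2, and overlap the squares in the other 7, Ezh1/Ezh2 included.

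Beyond the 33 genes, 85 further genes of histone methylation were listed, of which 81 were tested. Of these, 10 rose (12.3%, against 6.41% of all genes) and 3 fell (against 4.99%). All KO libraries lay above all WT libraries for 23 of the 81 and below them for 6, against 15.7% and 14.5% of all genes. With length offsets 8 rose and 4 fell, against 5.85% and 4.78% of all genes. The median log2 fold change was 0.16. Among 20 tested methyltransferases outside the 33, 5 rose (25% against 6.41% of all genes) and 0 fell. The 5 were Kmt2a (also named Mll1), Setd5, Kmt2d, Smyd2 and Kmt2c. All but Smyd2 lay in the decile with the longest transcripts, where 16.6% of genes rose. Smyd2, at 1680 nt, lay in a decile where 3.05% rose. Kmt2a had 428, 397 and 458 CPM in KO and 277, 259 and 292 CPM in WT (log2 fold change 0.63, edgeR, adjusted p = 0.000494). Setd5, Kmt2d, Smyd2 and Kmt2c had log2 fold changes of 0.67, 0.46, 0.52 and 0.34. Setd5 and Kmt2a rose whichever library was left out. Kmt2d lost its call without KO replicate 3 or WT replicate 1, Smyd2 without any 1 library other than WT replicate 2, and Kmt2c whichever library was left out. Kmt2c did not pass with length offsets (edgeR, adjusted p = 0.0696), nor did Kmt2c, Kmt2d and Smyd2 with length and GC offsets. Of 11 genes of the COMPASS complexes, which carry H3K4 methyltransferases, or of their cofactors, 3 rose (27.3% against 6.41% of all genes) and 0 fell. With length offsets 2 rose, and Paxip1 did not pass (edgeR, adjusted p = 0.0628). Ncoa6 rose by 0.71 whichever library was left out (edgeR, adjusted p = 0.00308). Psip1, whose product binds methylated H3K36 and tethers MLL proteins, rose by 0.42 and Paxip1 by 0.54, and lost the call without KO replicate 3, WT replicate 1 or WT replicate 3, and Paxip1 also without KO replicate 2 (highest adjusted p 0.0632 and 0.174). Of 13 genes of the CoREST complex of LSD1, 1 rose (7.69%, near the 6.41% of all genes), the DNA-binding repressor Gfi1, by 0.62 (edgeR, adjusted p = 0.0199), a call lost without KO replicate 2, KO replicate 3 or WT replicate 2 (highest adjusted p 0.129) and with length and GC offsets (adjusted p = 0.15). Of 11 tested demethylases outside the 33, 0 passed with edgeR or DESeq2, and 0 had an unadjusted p under 0.05 in edgeR. Beside the 6.41% of all genes that rose and 4.99% that fell in edgeR, 0 calls in a list this short say little.

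Mat2a, which encodes the enzyme that makes S-adenosylmethionine, the methyl donor of all these methyltransferases, fell in KO. It had 106, 134 and 109 CPM in KO and 224, 190 and 195 CPM in WT. Every KO library lay below every WT library, with a log2 fold change of -0.80 and an SE of 0.13 (edgeR, adjusted p = 0.000421). The call held without any 1 library and under every alternative run. Of the 6 tested genes of the methionine cycle list 1 fell and 0 rose. Beside the 4.99% of all genes that fell and 6.41% that rose, the count for so short a list says little. Ahcy, which clears the by-product S-adenosylhomocysteine, averaged 151 ± 31.6 CPM in KO and 194 ± 22.6 CPM in WT (SD, n = 3 each) and did not pass (edgeR, adjusted p = 0.122).

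The sex-linked demethylases differed among libraries of the same genotype. The Y-linked Kdm5d had 0, 40.4 and 11.0 CPM in KO and 0, 25.2 and 22.4 CPM in WT. The Y-linked Uty had 0, 28.4 and 6.31 CPM in KO and 1.30, 15.7 and 20.05 CPM in WT. KO replicate 2, with the highest Y-linked levels, had 0 Xist counts, while the other 5 libraries had 5842 to 16004. KO replicate 1 had 0 Y-linked counts and 13480 Xist counts, so KO replicates 1 and 2 did not come from the same embryo. For the other libraries the number of embryos is not known. The X-linked Kdm5c had 273, 165 and 204 CPM in KO and 197, 172 and 201 CPM in WT. Kdm6a, the X-linked eraser of H3K27 methylation, had 72.7, 45.3 and 68.3 CPM in KO and 89.2, 71.4 and 60.8 CPM in WT. KO replicate 2 was the lowest library for both. When the Y-linked level was added to the fit, the same 11 of the 33 genes rose (6.62% of all genes), as they did with the replicate number as a block (6.24%).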

How the data were processed

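TopHat, Cufflinks and mouse build mm9 are named in the submitters' processing notes, without versions. How reads were counted, on which strand, and what was done with multiply matching reads is not stated there, so reads of overlapping genes cannot be told apart. Per the labels' protocols, libraries were made with a stranded total RNA kit for very low input. The authors deposited whole-number counts per gene symbol, without normalization, and RPKM values.

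Counts were tested with edgeR 4.0.16 and limma 3.58.1 in R 4.3.3 (TMM, filterByExpr, robust quasi-likelihood tests on genotype alone). The SE of a log2 fold change was its size divided by the square root of F. CPM used TMM library sizes. Alternatives used DESeq2 1.42.0, limma-voom, limma on log2(RPKM + 1), other filters and scalings, a replicate block, a Y-linked covariate and offsets. Offsets came from natural splines with 5 degrees of freedom on log2 length and GC of the longest coding transcript per gene (GENCODE M21, GRCm38). For these, 22658 symbols matched directly and 925 through older names, including all 33 genes. Simulated counts were used to try DESeq2, limma-voom and edgeR without offsets, with each kind of offset and with the replicate block. The RPKM fits, the Y-linked covariate, the other filters and scalings and the permutation test were not tried in this way. Replicates differed by a chi-square of 21.9 to 44.4 per degree of freedom, so none was counted as a repeat.

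Named were the 33 genes, listed genes past the threshold (at most 4 of lowest p per list, plus Kmt2c, named after its value was seen), 4 sex-linked demethylases and Uqcrfs1. Ahcy and Atf7ip were also named after their values were seen. Genes and lists were chosen with earlier results of these data known. Promoters are from RefSeq, and 23 of the 33 genes had an entry.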

Additional observations from a re-analysis of the deposited data

How the results depend on the processing

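Of the 33 genes, the number that rose (11) was 6 with length and GC offsets, 2 with limma on log2(RPKM + 1) or log2(RPKM + 0.1), and 1 with log2(RPKM + 1) and no filter. The number that fell (0) was 2 with length and GC offsets. For the 85 listed genes, 10 rose and 3 fell; 6 rose with length and GC offsets, and 1 rose and 1 fell in each of the 3 RPKM fits. Over all genes, 1391 calls became 493, 475 and 236 in these RPKM fits. Leaving out 1 library gave 5 to 12 of the 33 higher and 0 lower, 3 to 9 listed genes higher and 1 to 4 lower, and 712 to 1263 calls in all. It also left 6 to 9 pairs of related genes without overlap, against 6. Removing a library cannot lower that count, so this range is no check on the pairs. Without WT replicate 3 and with length offsets, chosen after seeing the data, 7 of the 33 rose and Ash1l had a log2 fold change of -0.043. Ezh1 ranged from -0.026 to 0.17 and Suv39h2 from -0.060 to 0.31 without 1 library. The cause of these changes was not tested. DESeq2 called 14 of the 33, limma-voom 12 and the fit with no filter 13, all higher. With the replicate number as a block, 11 of the 33 rose, 8 listed genes rose and 2 fell, and 1341 genes were called. The labels give no shared source for a number, and deviations of same-numbered libraries correlated at 0.022, 0.012 and -0.003, so the numbers were not taken as pairs. KO replicate 3 correlated best with WT replicate 2. The number of libraries limits the precision, since 3 against 3 cannot separate small changes.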
